A study of Mus musculus with 6 samples.

Results

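EP3A probes are one of the probe series of the mouse array used here, named by the array maker's identifiers. The regions described are the EP3A probes whose signal in control sperm leaned most strongly to the supernatant fraction. They were selected on the control arrays. A member had to be well above background in the supernatant channel on all 3 control arrays. Its mean control log2 ratio of immunoprecipitated (IP) over supernatant signal, with each array centred on its median ratio, had to be -2 or less. That is an IP signal at least 4-fold lower, relative to the supernatant, than for the array's median probe. The dyes were balanced on each array, so the ratio ranks probes and does not give the true amounts of the fractions. Of 48057 EP3A probes, 16898 passed the supernatant condition and 1593 were members. Members were 3.31% of the series and 9.43% of the probes that passed. The other 15305 probes that passed served as the comparison. Because the control ratios chose the members, those ratios are given as a description, and only the 3 Cd arrays read the partition independently.

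The samples were sperm of male C57BL/6 mice. Control males drank control water, and Cd males were given 100 mg/L CdCl2 in drinking water from 5 weeks of age for 10 weeks. Sperm were taken at 15 weeks of age in both groups. Each group had 3 arrays, called biological replicates in the labels, and the sources used here do not give how many animals stand behind each. On each array the IP RNA of a sample carried the red dye Cy5 and its supernatant RNA the green dye Cy3. No dye swap is described, so fraction and dye cannot be told apart within an array. The sources used here do not say what the antibody bound.

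In an RNA immunoprecipitation an antibody pulls down the RNAs that carry its target, and the RNAs it does not hold stay in the supernatant. Mature sperm have a compacted nucleus and make almost no RNA, so the RNA they carry is left from spermatogenesis or taken up during passage through the epididymis. Cadmium is a toxic metal that is known to injure the testis.

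All control arrays came from 1 scan and all Cd arrays from another, so the effects of scan and treatment cannot be told apart. None of the members has a gene symbol or a sequence in the tables used here, and each is named by its identifier. Of 15 sperm and haploid germ cell markers, 3 had a named probe on the array. Cep41 was well above background in both channels on 6 of 6 arrays, Hyal3 in the supernatant on 1 and in the IP on 6, and Spats1 on 0 in either channel. None of the 13 markers of leukocytes, epididymal epithelium, Leydig or Sertoli cells had a named probe, so the sperm label could not be checked against those cells.

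The partition was kept on the Cd arrays in direction by nearly all members. Its smaller size there holds the effect of having chosen the members on the control arrays. Of the 1530 members with a value on all 3 Cd arrays, 1528 (99.9%) had a Cd mean ratio below 0 and 1517 (99.2%) a Cd mean of -1 or less. A Cd mean at or below the selection threshold of -2 was found for 982 (64.2%). All 3 Cd arrays were at -2 or less for 597 members (39.0%) and at -1 or less for 1403 (91.7%). The remaining 63 members lacked a value on at least 1 Cd array because of an outlier flag. On Cd arrays 1, 2 and 3, 96.2%, 95.6% and 98.0% of the members were at -1 or less. Of the other EP3A probes that passed, 15.1%, 16.3% and 17.7% were. Above 0 were 0.13%, 0.25% and 0.13% of the members and 50.5%, 52.3% and 48.7% of the other probes.

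The median ratio over the members was -2.49, -2.62 and -2.50 on control arrays 1, 2 and 3, and -2.07, -2.28 and -2.27 on Cd arrays 1, 2 and 3. The groups did not overlap, and Cd array 1 was the highest. The array medians averaged -2.53 ± 0.07 (SD, n = 3) in control and -2.21 ± 0.12 (SD, n = 3) in Cd. This difference of 0.33 holds the effect of having chosen the members on the control arrays, and no test is given for it. Over the members, the control mean ratio ran from -4.96 to the threshold, with a median of -2.51. The Cd mean ratio ran from -5.49 to 0.29 with a median of -2.17, and its middle 50% of members lay between -2.60 and -1.85.

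**Figure D1:**
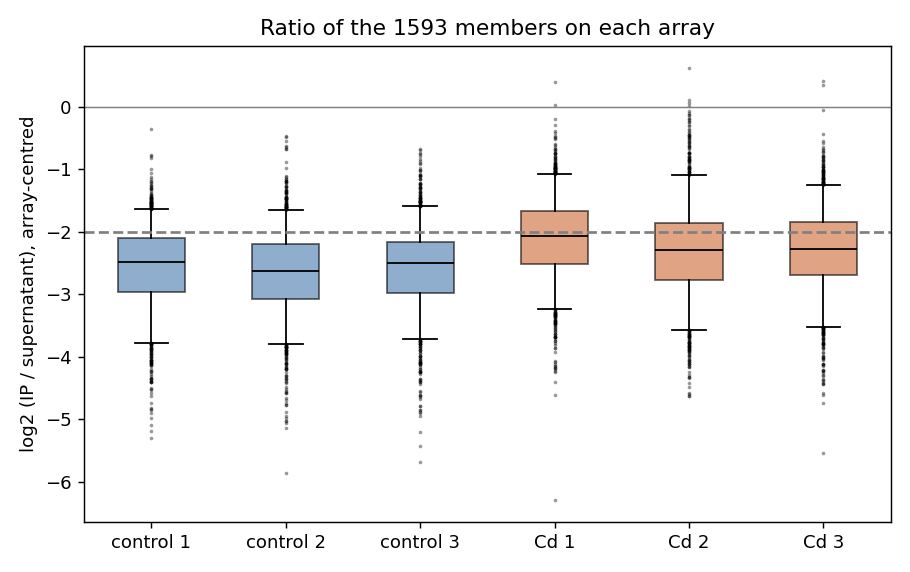
Centred log2 ratio of IP over supernatant signal of the members on each of the 6 arrays. Boxes show the quartiles and the median, whiskers the 5th and 95th percentiles, points the members beyond them, and the dashed line the selection threshold of -2. The control medians lie between -2.62 and -2.49 and the Cd medians between -2.28 and -2.07.

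On the Cd arrays, which did not choose them, the members stood well below the other EP3A probes with a detected supernatant signal. Their median ratio minus that of the other probes was -2.08, -2.35 and -2.24 on Cd arrays 1, 2 and 3, a mean of -2.22 ± 0.13 (SD, n = 3). All 3 Cd arrays had the same sign (exact 2-sided sign-flip permutation p = 0.25, the smallest that 3 arrays allow). The same ratio on the control arrays had split members from the other probes, so this test cannot decide whether the partition was kept. On the control arrays the same contrast was -2.40, -2.64 and -2.54. At the threshold of -2 stood 54.6%, 67.1% and 66.4% of the members on Cd arrays 1, 2 and 3, against 1.26%, 1.56% and 1.88% of the other probes. The order of the members was shared in part between Cd arrays. The Spearman correlation of the members' ratios between pairs of Cd arrays was 0.56, 0.60 and 0.45 over 1530 members, against 0.90, 0.87 and 0.83 over 15129 other probes. Members span a narrower range of ratios than the others and share array and scan, so these coefficients are descriptions.

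The members were bright in the supernatant and dim in the IP. Their median processed supernatant intensity was 1185, 1725 and 1896 on control arrays 1, 2 and 3, and 1965, 1729 and 1712 on Cd arrays 1, 2 and 3. Control array 1 was the dimmest, and the other 5 arrays lay between 1712 and 1965. The median IP intensity was 199, 276 and 355 in control and 447, 366 and 369 in Cd. Control array 1 was the lowest in the IP, and control array 3 came nearest to Cd. Against the other EP3A probes on the log2 scale, the members' supernatant median was higher by 1.00, 0.99 and 1.07 in control and by 1.04, 0.88 and 1.04 in Cd. In the IP channel the same contrast was -1.72, -1.85 and -1.57 in control and -1.29, -1.55 and -1.36 in Cd. The supernatant excess of the members overlapped between the groups. The control values of both channels helped to choose the members. The control supernatant excess and IP deficit thus hold the effect of that choice. For probes chosen on pairs of control arrays, the IP contrast with the same other probes was -1.90, -2.06 and -1.78 on the control array left out, and -1.63, -1.71 and -1.60 for the mean of the Cd arrays. Their supernatant contrast was 0.61, 0.53 and 0.80 on the control array left out. For the mean of the Cd arrays it was 0.71, 0.59 and 0.70. These probe sets are not the members, so their contrasts are not like for like with those of the members.

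Detection followed the same split between channels. The supernatant signal was well above background on all 3 Cd arrays for 1518 of 1530 members (99.2%). The IP signal was well above background for 46.6%, 66.5% and 75.6% of the members on control arrays 1, 2 and 3, and for 87.1%, 83.4% and 77.1% on Cd arrays 1, 2 and 3. The control shares hold the effect of the choice as well. For probes chosen on pairs of control arrays, the share was 43.9%, 65.4% and 77.0% on control arrays 1, 2 and 3 when left out. On Cd array 3 the same 3 sets had 71.1%, 74.2% and 76.0%, so the separation was not kept for control array 3. Over the other EP3A probes the IP shares were 79.3%, 96.0% and 98.1% in control and 99.1%, 98.9% and 96.6% in Cd. The lowest IP intensity called well above background was 195, 130 and 115 in control and 93.7, 92.7 and 114 in Cd. The limit was highest on control array 1 and nearly the same on control array 3 and Cd array 3, and its part in the difference between the groups was not tested.

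The authors' deposited table of log2 IP values lists 1375 of the members (86.3%) and 15223 of the other EP3A probes (99.5%). On every array its values for these members differed from log2 of the processed IP signal by a constant, within 0.01, and what the constant stands for is not known. In the authors' deposited table the members' median was -2.91, -2.09 and -2.04 in control and -1.66, -1.72 and -2.11 in Cd. On that scale the groups overlapped, since Cd array 3 lay below control arrays 2 and 3. The column medians were -2.87, -1.999 and -2.16 in control and -2.11, -1.81 and -2.36 in Cd.

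**Figure D2:**
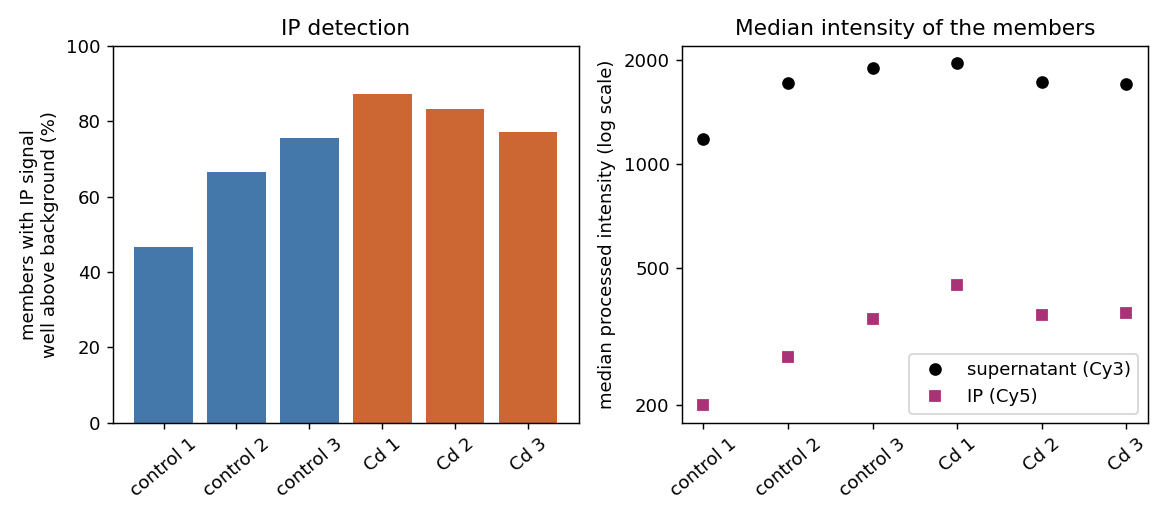
Left, share of the members whose IP signal was well above background on each array, in percent; right, median processed intensity of the members in the supernatant and IP channels on a log axis. IP detection runs from 46.6% on control array 1 to 87.1% on Cd array 1, and the IP median is lowest on control array 1.

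For a member whose IP signal was not well above background, the ratio is only a bound. In control sperm, 739 members (46.4%) had an IP signal well above background on all 3 arrays and 352 (22.1%) on none. For those 352 the bound was taken from the lowest IP signal called well above background on each array, or the probe's own signal where higher. On dye-normalized signals before centring, their supernatant signal was at least 2.43-fold above the IP at the median, and the highest bound was 11.3-fold. The bound reached at least 4-fold for 43 of them and stayed below 4-fold for 309, so for these 309 the measured IP level does not show that the partition is as strong as the rule asks. On the Cd arrays 1105 members (72.2%) had a detected IP signal on all 3 arrays and 146 (9.54%) on none. The 146 had a median bound of 3.20-fold and reached at least 4-fold in 32 cases.

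The share of members with a Cd mean of -2 or less was also read by IP detection in control. Among the 739 members with IP detected on all 3 control arrays, 69.5% had a Cd mean of -2 or less, and the median difference of Cd minus control was 0.24. Among the 352 detected on none, the share was 66.8% and the difference 0.46. The classes detected on 1 and on 2 control arrays held 214 and 288 members, with shares of 50.5% and 58.7% and differences of 0.50 and 0.40. The share thus rose over the classes detected on 1, 2 and 3 control arrays, and the class detected on none stood apart from that order. Below 3 detected arrays the control ratios are in part bounds, so the differences there rest on bounds as well. No test was run between these classes, which were defined after the values were seen.

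Return toward the median was measured in control sperm itself. The rule was applied to each pair of control arrays in turn, and the probes it chose were read on the control array left out and on the 3 Cd arrays. With control arrays 1, 2 and 3 left out, the rule chose 1845, 1683 and 1691 probes. The probes read here were 1764, 1614 and 1614. Their median ratio was -2.52, -2.47 and -2.51 over the choosing arrays and -2.25, -2.42 and -2.41 on the array left out. The return on an unused control array was thus 0.14 on average, and it was largest for control array 1. On the Cd arrays the same probes had medians of -2.15, -2.17 and -2.15 for the mean of the 3 arrays, a return of 0.34 on average. The Cd value exceeded the left-out control value by 0.09, 0.25 and 0.26, with a mean of 0.20.

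Each left-out control median lay below all 3 Cd medians, in 3 of 3 selections, but for control array 1 the margin was small. Its median was -2.246, against -2.225 on Cd array 2. The 3 selections share control arrays and were read on the same 3 Cd arrays, so they are not independent. The share of chosen probes at -2 or less was 62.2%, 69.6% and 73.7% on the left-out control arrays. On Cd array 1 it was 53.0%, 51.1% and 52.1%, lower in each selection. With control array 1 left out, Cd array 2 had 63.0% and Cd array 3 had 61.9%, so the shares overlapped there. The mean excess of Cd over the left-out control array was 0.17 without the dye normalization and 0.12 with normexp background correction. With normexp it ran from -0.01 to 0.21 over the 3 selections, so for 1 selection it was not above 0. The normexp selections held only 263, 247 and 302 probes, so this excess is for a different and smaller set.

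The rule was also turned round. Applied to the 3 Cd arrays, it chose 1272 probes, of which 978 were members, 76.9% of the Cd choice and 61.4% of the members. On the control arrays, which did not choose them, these probes had medians of -2.41, -2.60 and -2.62, a mean of -2.55 ± 0.12 (SD, n = 3). On the Cd arrays that chose them the medians were -2.33, -2.54 and -2.50, a mean of -2.46 ± 0.11 (SD, n = 3). Control minus Cd was -0.09, away from the array median rather than toward it. A control mean of -2 or less was found for 83.2% of these probes, and of -1 or less for 99.2%.

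The left-out reading was then repeated with the groups exchanged, an alternative added after the first values were seen. For the rule on pairs of Cd arrays, 1400, 1371 and 1289 chosen probes were read. Their medians were -2.45, -2.39 and -2.43 on the choosing arrays and -2.19, -2.32 and -2.35 on the Cd array left out. The return on an unused Cd array was 0.13, close in size to the 0.14 in control. On the control arrays the same probes averaged -2.50, -2.46 and -2.51. Control minus the left-out Cd array was -0.31, -0.14 and -0.16, a mean of -0.20. Control array 1, at -2.320, was just above the left-out Cd array 2, at -2.325, and the other control medians lay below each left-out Cd median.

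**Figure D3:**
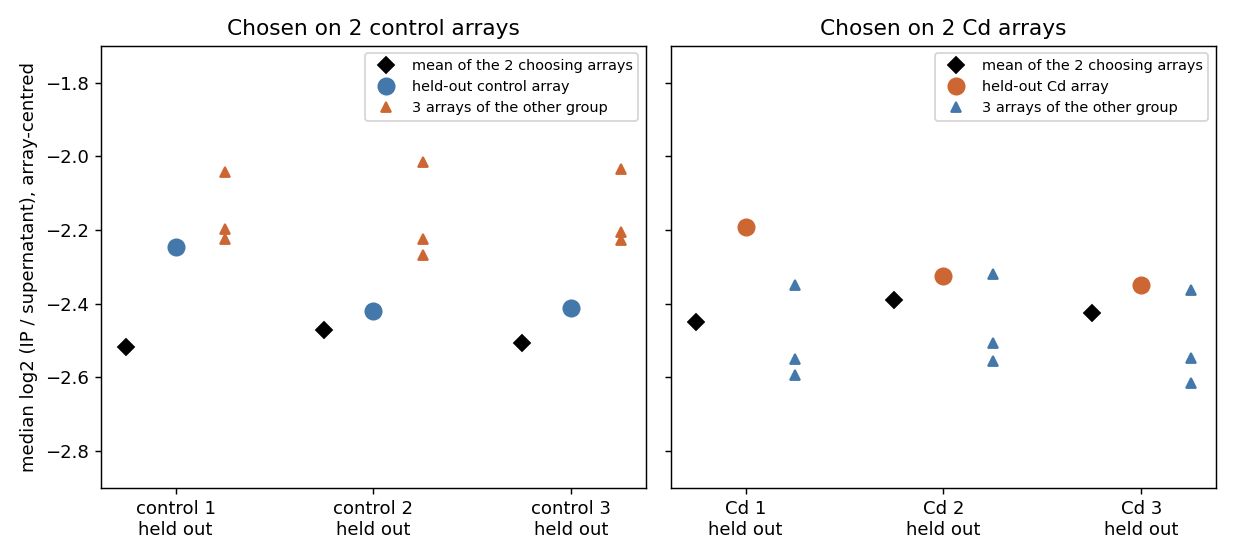
Median centred log2 ratio of probes chosen on 2 arrays of a group, read on the third array of that group and on the 3 arrays of the other group. Diamonds are the choosing arrays, circles the array left out and triangles the other group. On the left, the Cd arrays lie above the left-out control array in 3 of 3 selections. On the right, the control arrays lie mostly below the left-out Cd array. The selections in each panel share arrays and are not independent.

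The supernatant end of the distribution was also compared without choosing probes by their ratio, again an added analysis. Over the 16554 EP3A probes with supernatant well above background on all 6 arrays, the 5th percentile of the ratio was -2.56, -2.61 and -2.45 in control and -2.13, -2.29 and -2.32 in Cd. All Cd values lay above all control values, by 0.29 between the means (exact permutation p = 0.1, the smallest that 3 against 3 allow). The share of probes at -2 or less was 11.3%, 10.4% and 9.33% in control and 6.22%, 7.55% and 7.79% in Cd (exact permutation p = 0.1). At the IP end, the 95th percentile was 1.89, 2.19 and 1.96 in control and 1.93, 1.99 and 1.93 in Cd, and the groups overlapped (exact permutation p = 0.8). Of the 18 such values tested, the smallest Benjamini-Hochberg adjusted p was 0.6. Over the 12568 probes detected in both channels on all 6 arrays, the difference in the 5th percentile was 0.18 and the groups overlapped (exact permutation p = 0.2). Without the dye normalization it was 0.13, also with overlap (exact permutation p = 0.4).

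The difference between the groups ran along the whole range of control ratios rather than starting at the threshold. Members with a control mean of -3 or less, 302 in number, had a median difference of 0.40, and 96.6% of them had a Cd mean of -2 or less. The 500 members between -3 and -2.5 had a difference of 0.32 and a share of 81.8%. The 791 members between -2.5 and -2 had a difference of 0.30 and a share of 40.4%. Just outside the rule, the 1266 probes between -2 and -1.5 had a difference of 0.22. The 654 probes between 2 and 3 had -0.14. Control ratios enter both axes of this description, so it holds the return toward the median as well.

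**Figure D4:**
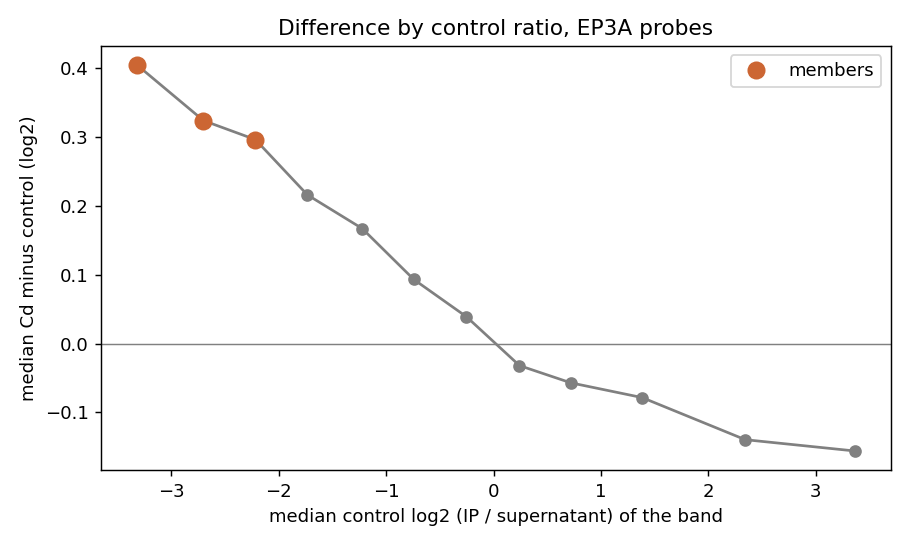
Median difference in centred log2 ratio, Cd minus control, against the median control ratio for bands of EP3A probes with a detected control supernatant. The 3 member bands have differences of 0.40, 0.32 and 0.30, and the difference passes 0 near a ratio of 0; control values enter both axes.

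In the limma test of the ratio over 23788 probes with both channels detected on 3 or more arrays, 1209 members were tested and 1 was called at a Benjamini-Hochberg adjusted p of 0.05, against 0.00420% of all probes tested. Member ratios were used by the rule, so the counts are descriptions. At an unadjusted p under 0.05, 124 members were higher and 0 lower in Cd, against 629 higher and 565 lower among all probes. The 3 Cd values lay above the 3 control values for 182 of the 1209 members, against 4.90% of all probes. They lay below for 1 member, against 5.15% of all probes. The filter also admits members whose IP was detected only on Cd arrays. Their control ratios are bounds, so the order of the groups is not settled for them in these counts. With both channels detected on all 6 arrays, 675 members were left. Of these, 66 were higher and 0 lower at an unadjusted limma p under 0.05, against 390 and 357 of all 14821 probes. Their median difference was 0.24, against 0.02 over all probes. The median difference over the 1209 members was 0.33, against 0.04 over all probes. With normexp background correction it was 0.04 against 0.05, with 700 of 1209 members higher. Over all 1530 members with values, 1324 (86.5%) were higher in Cd, against 53.4% of 15129 other probes. This count includes members whose control ratio is a bound, and for those the order of the groups is not settled. The median difference was 0.46 for members with IP detected on no control array and 0.24 for those with it on all 3.

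The member called was ASMM10EP3A100132869, which had the highest Cd mean ratio of all members. Its ratio was -3.71, -3.01 and -2.79 in control and 0.40, 0.12 and 0.35 in Cd. All 3 Cd values lay far above the control values and on the IP side of 0, the only member for which this held on all 3 Cd arrays. The difference was 3.46 ± 0.30 (SE; limma, Benjamini-Hochberg adjusted p = 0.0323). The call was kept without control array 1 and lost without each of the other 5 arrays. It was also lost with a replicate block, with normexp background correction and with no filter on dim probes, where the smallest adjusted p of any member was 0.191, 0.349 and 0.432. Its IP was well above background on 2 of 3 control arrays, so a filter on all 6 arrays removed it from the test. Its supernatant intensity was 1110, 1441 and 1250 in control and 102, 131 and 232 in Cd, while its IP intensity was 86.3, 176 and 183 in control and 134, 138 and 312 in Cd. Only the supernatant separated the groups. The lowest intensity called well above background on Cd arrays 1, 2 and 3 was 88.4, 110 and 97.0 in the supernatant. In the IP it was 93.7, 92.7 and 114. On Cd arrays 1 and 2 both channels of this probe were thus near the limit, and its ratios there rest on dim signals. On control array 1 its IP was below the limit of 195, so its ratio there is a bound. Its level, the log2 summed channels, differed by -2.35 ± 0.35 (SE; limma adjusted p = 0.417).

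The other member with a positive Cd mean was ASMM10EP3A102668548, a dim probe. Its ratio was -2.01, -3.01 and -1.51 in control and -0.86, 0.63 and 0.42 in Cd. Its supernatant intensity was 171, 281 and 235 in control and 259, 92.6 and 128 in Cd, and it was well above background there on 2 of 3 Cd arrays. The IP signal was not well above background on any control array, where the bound was at least 1.57-fold. It was not tested for the ratio, since both channels were detected on fewer than 3 arrays.

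The 3 members with the lowest control means were ASMM10EP3A100201098, ASMM10EP3A123825357 and ASMM10EP3A101793731. In control, their IP signal was not well above background on any array, so their supernatant signal was at least 6.66-fold, 10.7-fold and 7.50-fold above the IP. The ratio of ASMM10EP3A100201098 was -4.06, -5.14 and -5.69 in control and -3.75, -3.33 and -3.85 in Cd. Its control ratios rest on IP signals not above background and are bounds, while its IP was detected on all 3 Cd arrays, so the groups cannot be ordered. ASMM10EP3A123825357 had -4.35, -4.56 and -4.88 in control and -3.78, -4.24 and -4.00 in Cd, where its IP was detected on 1 array, so here too the groups cannot be ordered. ASMM10EP3A101793731 had -3.15, -4.97 and -5.43 in control and -2.89, -4.16 and -3.56 in Cd. Its IP was not detected on any Cd array either, and there its supernatant was at least 4.56-fold higher.

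The strongest partition with both channels measured in Cd was kept by ASMM10EP3A100229961 and ASMM10EP3A118537823, beside ASMM10EP3A100201098. ASMM10EP3A118537823 had ratios of -3.93, -3.55 and -4.04 in control and -3.59, -3.52 and -3.85 in Cd. The groups overlapped, with a difference of 0.19 ± 0.26 (SE; limma adjusted p = 0.968). Its IP was well above background on all 6 arrays, at 557, 919 and 843 in control and 1413, 1458 and 1410 in Cd, beside a supernatant of 8310 to 13764 in control and 17027 to 19219 in Cd. ASMM10EP3A100229961 had -5.31, -3.61 and -4.39 in control and -3.25, -4.01 and -4.43 in Cd. Its IP was detected on 1 control array and on all 3 Cd arrays, so part of its control ratio is a bound.

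Among the brightest members the Cd arrays differed widely from each other. ASMM10EP3A123640014, ASMM10EP3A110542564 and ASMM10EP3A100038242 had the highest control supernatant. The ratio of ASMM10EP3A110542564 was -2.94, -2.97 and -3.08 in control and -1.14, -2.50 and -1.49 in Cd (difference 1.28 ± 0.36 SE, limma adjusted p = 0.959). ASMM10EP3A100038242 had -2.08, -2.55 and -2.39 in control and -0.76, -1.86 and -1.21 in Cd. ASMM10EP3A123640014 had -2.67, -3.06 and -2.96 in control, -0.98 and -2.38 on Cd arrays 1 and 2, and no value on Cd array 3. In all 3, Cd array 1 was the highest and Cd array 2 the nearest to control.

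The size of this difference depended on the dye normalization. For the 20 members brightest in the control supernatant, a group set after the values were seen, the median ratio was -2.16, -2.55 and -2.41 in control and -0.99, -2.18 and -1.24 in Cd, and 20 of 20 were higher in Cd. From signals without dye normalization the medians were -1.83, -2.47 and -1.93 in control and -1.85, -2.12 and -1.73 in Cd. The groups then overlapped, and the median difference moved from 0.93 to 0.18. Of the 20, 19 were still higher in Cd, and the number with all 3 Cd values above the control values went from 12 to 1. Without dye normalization ASMM10EP3A110542564 had -2.50, -2.83 and -2.60 in control and -2.07, -2.44 and -2.02 in Cd, and its groups still did not overlap. ASMM10EP3A100132869 kept its place, at -3.69, -2.96 and -2.74 against 0.46, 0.14 and 0.50.

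**Figure D5:**
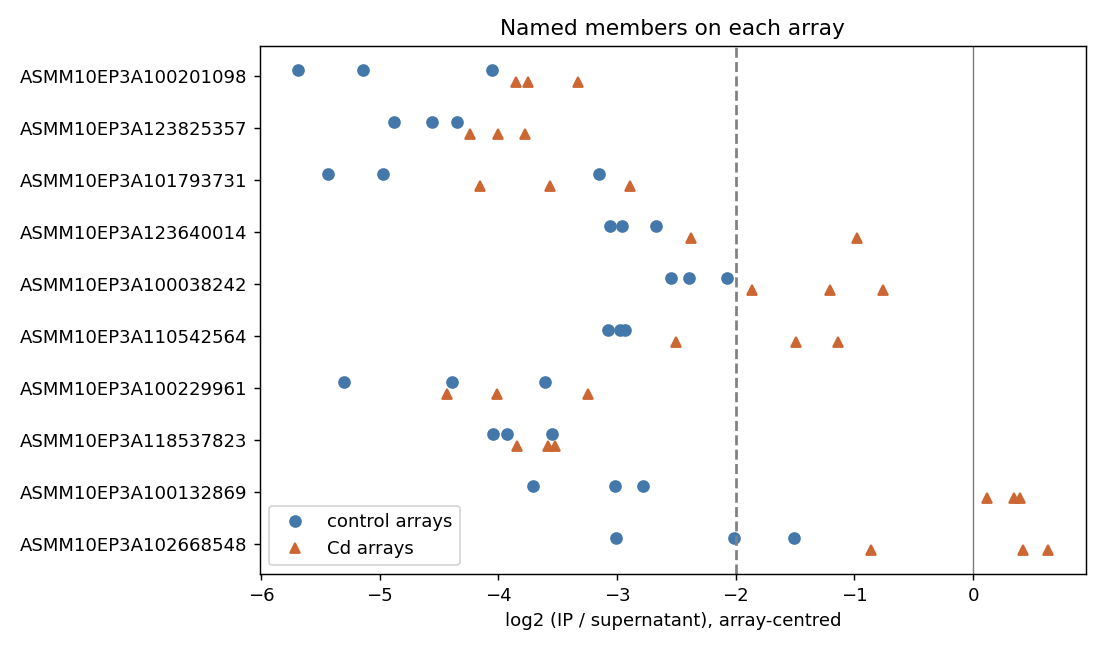
Centred log2 ratio of the named members on each array, circles for control and triangles for Cd, with the selection threshold of -2 dashed and 0 solid. ASMM10EP3A100132869 has all 3 Cd values above 0, at 0.40, 0.12 and 0.35, while ASMM10EP3A118537823 overlaps between the groups near -3.5 to -4.04.

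At the threshold itself, ASMM10EP3A115999692 and ASMM10EP3A118615756 were just inside, with control means of -2.0001 and -2.0002 and Cd means of -1.90 and -1.84. ASMM10EP3A121828756 and ASMM10EP3A101785021 were just outside, with control means of -1.9995 and -1.9994 and Cd means of -2.22 and -1.43. Over all members, the ratio was -2 or less on each of the 3 control arrays for 912 (57.3%).

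The summed level of the members did not separate the groups. Level was the log2 sum of both channels minus the array's 75th percentile. Over the 1530 members tested, its median was 0.94, 0.88 and 1.00 in control and 1.11, 0.87 and 1.03 in Cd, 0.94 ± 0.06 against 1.00 ± 0.12 (SD, n = 3). Cd array 2 was the lowest of all 6 and Cd array 1 the highest. In the limma test over 30518 probes, 0 members were called, against 0% of all probes, and the smallest adjusted p was 0.417. At an unadjusted p under 0.05, 145 members were higher and 44 lower, against 1885 and 1244 of all probes. The groups did not overlap for 250 members higher in Cd, against 10.6% of all probes, and for 79 lower, against 8.87%. The median difference was 0.10 over the members and -0.00 over all probes, and 923 members were higher. Supernatant detection in control was part of the rule, so these counts are descriptions as well.

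Members were spread over the array and, at short range, grouped by identifier number. In 4 equal blocks of the array's rows they made up 8.97% to 10.1% of the EP3A probes with detected control supernatant, and in 4 blocks of its columns 8.62% to 10.1%. Where a member's neighbouring spot was such a probe, it was a member in 8.23% of 401 cases, against 9.59% of all 4527 side-by-side pairs. Probes with identifier numbers at most 20 apart behaved differently. The next probe after a member was itself a member in 42 of 149 such pairs (28.2%), against 9.29% of all 1755 pairs at that spacing. At spacings above 20 the share was between 8.39% and 10.8%. These counts were made after the members were known, the sources used here do not say what the numbers stand for, and whether close numbers share a transcript or sequence was not tested.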

How the data were processed

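RNA from 6 sperm samples, 3 control and 3 Cd, was measured on 2-colour arrays. The authors deposited scanner tables of spot intensity, written by Agilent Feature Extraction 11.0.1.1 according to the submitters' processing notes. Their processed intensity had background subtracted and the dyes balanced by linear and lowess steps, per the file headers. The log10 ratio in those deposited tables served only to check the ratio computed here. The deposited series table, with log2 IP values scaled by an unknown constant per array, was only set beside the IP signal.

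Outlier-flagged spots and control probes were left out, and spots of a probe were averaged. The ratio was log2 red over green processed signal, minus each array's median over ASMM10 and A_51_P probes. Flagged control spots removed 259 EP3A probes from selection. No member spot was saturated. A set of limma 3.58.1 fits (lmFit and eBayes, R 4.3.3) over all probes with values on all arrays compared the groups, 2-sided, with Benjamini-Hochberg adjustment at 0.05, and was tested on simulated data. Single values per array were compared with exact 2-sided permutation tests. Figures used matplotlib 3.10.9.

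The members and lists were chosen with earlier results of these data known. Named probes were, by rule, the 3 lowest control ratios, the 3 brightest control supernatants, the 3 lowest Cd ratios with both channels detected, the 2 highest Cd ratios, the 2 probes on each side of the threshold and any member called. Alternatives covered normexp (offset 50, on median signals), filters, dye normalization, centring, level scaling, a replicate block and leaving out each array. The reading on left-out Cd arrays, the percentiles over all detected probes, the classes by IP detection and ratio band, the 20 brightest members and some scales of the left-out reading were added after values were seen. A scan block could not be fitted. Replicate numbers were not used as pairs in the main fits. Deviations from the group mean correlated between same-numbered control and Cd arrays at -0.07, -0.05 and -0.12 for the ratio. For the level the correlations were -0.41, 0.43 and 0.004. These values do not settle whether the numbers pair the samples. The number of arrays limits the precision.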

Additional observations from a re-analysis of the deposited data

How the results depend on the processing

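The number of members fell from 1593 to 314 with normexp background correction and to 739 when both channels had to be well above background in control. The normexp offset draws ratios of dim probes toward 0 by construction, and the second setting admits fewer probes. Without each control array the number was 1683 to 1845. The share of members keeping a Cd mean of -2 or less, 64.2%, was 99.2% at -1 or less and 99.9% below 0, and without each array in turn it was 59.6% to 67.3%. The median Cd ratio was between -2.23 and -2.10 under every alternative run. The control minus Cd value of the turned rule, -0.09, was -0.22 with both channels detected and -0.15 without dye normalization, and the cause was not tested. It ran from -0.16 to -0.05 without each control array. The excess of Cd over the left-out control array ran from 0.13 to 0.24 without each Cd array. The 1 member called in the ratio test became 0 with normexp, with no filter on dim probes, with the filter on all 6 arrays and with the replicate block. Without each array it was 0 to 1, and with a variance trend or loess within arrays it was 1. Smallest adjusted p values among members ran from 0.0125 with loess to 0.888 with the filter on all 6 arrays. The filter on all 6 arrays removes the called member, whose IP was detected on 2 of 3 control arrays, and the cause of the other losses was not tested. The 0 members called for the level were 0 under all 11 alternatives, and the median level difference was 0.05 to 0.14, with 0.10 under the replicate block. For 739 members the IP was well above background on all 3 control arrays. For the rest, dim IP signals limit the control ratio to a bound on at least 1 array.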
